A study of Gasterosteus aculeatus with 31 samples.

Results

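The low-coordinate end of groupXIX, the sex chromosome of the threespine stickleback (Gasterosteus aculeatus), held 437 peaks of open chromatin in the brain with a start below 2000000. They were 437 of 4391 peaks on groupXIX and of 102149 peaks in the whole table. The end was chosen by the near equal counts of males and females in it, so each male and female value given here describes that choice and carries no test. The choice used position on groupXIX and these counts by sex. It did not use parental care, brain side, peak strength or the spread among fish, and these are described for the 437 peaks as members of one stretch of chromosome.

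Stickleback males carry an X and a Y chromosome, and females carry a pair of X chromosomes. Over most of their length the X and the Y no longer exchange DNA, and reads from a Y that has lost or changed its sequence do not match the X, so males give fewer reads there than females. Near one end the X and the Y still pair and recombine in the male. Such a pseudoautosomal region is passed on like an ordinary chromosome, both sexes carry it as a pair, and the male-determining gene of this fish, the Y-linked Amhy, lies outside it.

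The assay was ATAC-seq: a transposase, Tn5, cuts open DNA and tags it for sequencing, so that the read count of a peak follows how open the site was. A library came from the left or the right side of the brain of 1 juvenile. The fish descended from wild-caught fathers of Putah Creek in a half-sib design: father-reared fish (Day 10 in the labels) stayed with the father, and orphaned fish (Day 0) were reared by hand. The libraries were from 8 father-reared males, 7 orphaned males, 8 father-reared females and 8 orphaned females, and 13 were of left and 18 of right sides. All 31 fish were 6 to 8 months old, had explored an open arena for 10 min, had met a model sculpin (a fish that preys on stickleback) moved through it, and were killed 60 min after that simulated attack. No group was left without the attack, and a library mixes all cell types of the brain, so a change in cell makeup and a change in openness within cells cannot be told apart. Sex had been read from a DNA marker.

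Libraries held 2857578 to 10540612 counts, with a median of 4424554. Of these, 13644 to 46177 counts fell in the 437 peaks, and the median peak of the chromosome end had 19 to 69 counts in a library. All 31 libraries differed from each other, and over the tested peaks of the chromosome end their log2 levels correlated pairwise at 0.776 to 0.923. The fish came from 16 families, inferred here from the number that opens each fish's identifier, and 15 families gave a brother and a sister. Care was given to families, so p-values that take fish as independent may be too small. The labels do not list which families of the half-sib design share a parent. The permutation tests over families given below therefore took families as independent of each other, which may not hold. The files name no gene for a peak and no source used here gives the genome build, so positions are given as deposited, with no gene, exon or promoter assigned, and brain marker genes could not be checked.

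The chromosome end was laid out much like the ends of other chromosomes. It held 437 peaks, against 261 to 624 (median 463) in the first 2000000 bases of the other 20 linkage groups. The starts of neighbouring peaks lay a median of 2004.5 bases apart, against medians of 1858 to 3324.5 bases at the other ends. The typical peak lay near the weak end of the range elsewhere. The median level was 6.94 CPM (counts scaled to library size), against 6.87 to 7.62 CPM (median 7.20) at the other ends, and only that of groupXVII was lower. Strong peaks above 20 CPM made up 10.8% of the peaks, against 4.75% to 13.4% (median 8.82%) at the other ends, and only groupXI had a higher share.

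Within the end, peaks were uneven in place and in strength. The widest interval without a peak start ran from 172676 to 245487 and spanned 72811 bases. All but 4 peaks had the fixed width of the table, and the 4 wider ones spanned 590 to 797 bases. The first peak, at groupXIX 4345 to 4745, was weak, with 2.71 ± 0.71 CPM in males (SD, n = 15) and 2.01 ± 0.73 CPM in females (n = 16). Close to it, at groupXIX 6591 to 6991, lay the strongest of all 437 peaks, at 82.3 CPM on average over 31 fish. It was followed by 1491784 with 73.7 CPM and 1205966 with 73.2 CPM. The other 7 of the 10 strongest started at 932917, 596789, 1429366, 1016539, 742458, 1596937 and 1781880 and averaged 45.2 to 53.3 CPM.

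**Figure D1:**
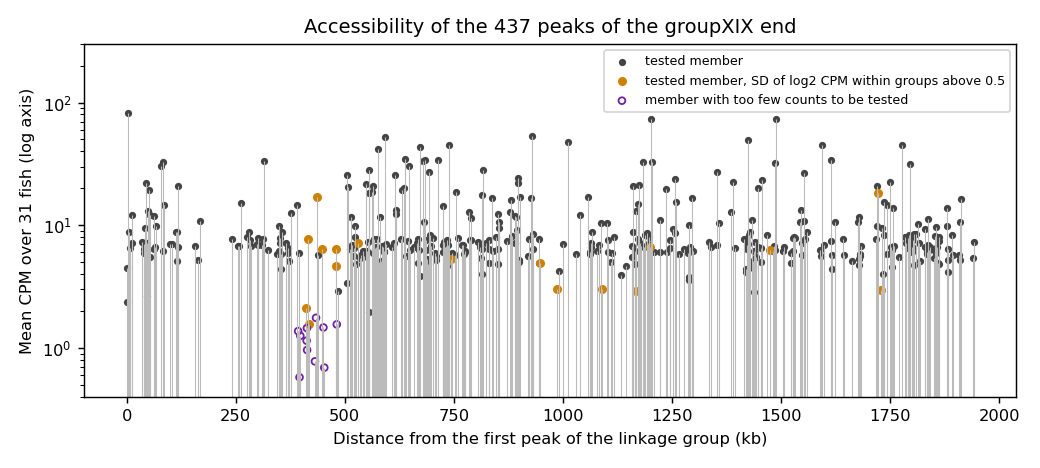
Mean level of each of the 437 peaks over 31 fish (CPM, log axis) against the distance of its start from the first peak of the linkage group in kb. Filled grey points are tested peaks, orange points are tested peaks whose SD of log2 CPM within care-by-sex groups was above 0.5, and open points are the 11 peaks with too few counts to be tested, which all sit in one stretch near 400 kb.

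Males and females had nearly the same counts across the chromosome end. Its counts, as a percentage of the sum of its counts and those off groupXIX, averaged 0.472% ± 0.0184 in males (SD, n = 15) and 0.462% ± 0.0135 in females (n = 16). By group they averaged 0.479% ± 0.0200 in father-reared males (n = 8), 0.463% ± 0.0127 in orphaned males (n = 7), 0.465% ± 0.0144 in father-reared females (n = 8) and 0.459% ± 0.0130 in orphaned females (n = 8). All 4 groups overlapped. The 95% Wilson interval of a single library reached 0.00416 to 0.00837 percentage points to each side, which covers counting error only. The share of a brother over that of his sister averaged 1.02 ± 0.045 (SD, n = 15 families), lay between 0.962 and 1.15, and was above 1 in 11 of 15 families. The family at 1.15 was father-reared, and the sister in it had the lowest share of all 31 fish, 0.442%. Her brother, with the library of the fewest counts, had 0.507%, close to the highest share of all fish.

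The near equality held window by window apart from 1 window. In 20 windows of 100 kb with 6 to 41 peaks each, the mean of males relative to the mean of females was 0.965 to 1.07 in 19, all within 10% of 1. In the window from 400 to 500 kb it was 1.33 ± 0.24 (SD, n = 15 males, 19 peaks). There, father-reared males averaged 1.41 ± 0.22 (n = 8) and orphaned males 1.24 ± 0.24 (n = 7) of the female mean.

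Peak by peak, the log2 difference of males minus females had a median of 0.03 over the 426 tested peaks, with quartiles of -0.06 and 0.10. It lay within 1.2-fold in either direction for 413 peaks (96.9%). Beyond 1.2-fold, 6 peaks were higher and 7 were lower in males. Among all 100808 peaks tested, 4.07% lay beyond 1.2-fold in either direction, most of them farther along groupXIX. Off groupXIX 98.3% of peaks lay within 1.2-fold, so peaks beyond 1.2-fold were rarer there than in the chromosome end.

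The peaks with the largest sex differences were a mixed group. Among tested peaks, the 5 highest in males started at 415478, 420676, 4345, 1478431 and 451026, with log2 differences of 0.33 to 1.58, and 3 of these 5 lay in the window from 400 to 500 kb. At 415478 the median was 3.03 CPM in males and 0.445 CPM in females, so it met the minimum of counts for testing mostly through males. Its neighbours 416847, 417549 and 417975 had too few counts to be tested and could not enter this list. The 5 lowest in males were small differences at well-filled peaks spread along the end. The lowest, groupXIX 791285 to 791685, ranged from 4.33 over a median of 6.61 to 8.47 CPM in males, against 5.97 over 8.25 to 11.0 CPM in females, a log2 difference of -0.36 (SE 0.09). Most fish of both sexes overlapped there. The other 4, at 1270718, 1115018, 1822323 and 1445743, differed by log2 values of -0.34 to -0.29.

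**Figure D2:**
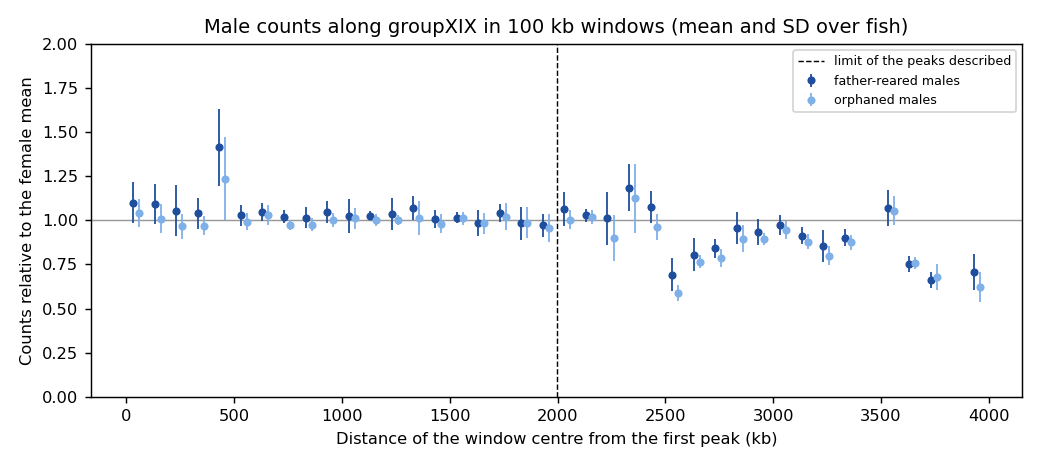
Counts of father-reared males (dark) and orphaned males (light) relative to the mean of all females, in 100 kb windows with at least 5 peaks along the first 4 Mb of groupXIX, scaled to counts off groupXIX; points are means and bars are SDs over fish (n = 8 and 7). Left of the dashed limit the means of all males sit between 0.965 and 1.07 except at 400 to 500 kb, and right of it they are 0.958 to 1.16 up to 2500 kb and 0.645 in the window from 2500 to 2600 kb.

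Counts of males and females were close on both sides of the limit at 2000000. The 3 last peaks inside it, at 1945772, 1942932 and 1917214, had log2 differences of males minus females of 0.01, 0.01 and 0.02. The 3 first peaks beyond it, at 2015050, 2016463 and 2044975, had 0.14, 0.07 and -0.02. Summed over the 92 peaks from 2 to 2.5 Mb, males had 1.02 ± 0.087 of the female mean (SD, n = 15), with windows of 100 kb from 0.958 at 2200 to 2300 kb to 1.16 at 2300 to 2400 kb. From 2.5 to 4 Mb they had 0.864 ± 0.043, from 4 to 12 Mb 0.560 ± 0.011 and beyond 12 Mb 0.922 ± 0.014. Between 4 and 12 Mb the 15 males lay at 0.542 to 0.581 and the 16 females at 0.981 to 1.03, so every library fitted the sex of its label.

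The weakest peaks of the chromosome end lay close together in 1 stretch. From 397408 to 486326, over 88918 bases, 20 peaks had a median level of 1.56 CPM, against 7.08 CPM for the 417 peaks elsewhere in the end, whose lowest was 1.96 CPM. The stretch was bounded by the first and last of the 11 peaks that failed the minimum of counts for testing. It therefore holds all 11 by definition, at 0.577 to 1.76 CPM, and its low median follows from that. The other 9 peaks were tested. Of those 9, 7 varied strongly among fish of a group, with an SD of log2 CPM above 0.5. Counting error is part of this SD and weighs more at low counts. The 15 peaks of the stretch outside the cluster described next gave males 1.07 ± 0.14 of the female mean (SD, n = 15).

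The male excess at 400 to 500 kb came mostly from 5 neighbouring peaks that start at 415478, 416847, 417549, 417975 and 420676 and together span 5598 bases. Their summed level was 14.9 to 39.7 CPM (median 20.7) in father-reared males and 11.5 to 33.6 CPM (median 16.1) in orphaned males. In females it was 1.38 to 18.3 CPM (median 6.13) when father-reared and 2.14 to 10.9 CPM (median 4.83) when orphaned. Males were higher as a group but not without overlap: 6 of 15 males lay above the highest female, and 14 of 16 females lay below the lowest male. In each of the 15 families with both sexes the brother was above his sister. Group means were 23.2 ± 8.59 CPM in father-reared males and 17.8 ± 7.30 CPM in orphaned males, against 7.79 ± 5.96 CPM in father-reared females and 5.40 ± 3.22 CPM in orphaned females (SD, n = 8, 7, 8 and 8). The male mean was 2.99 times the female mean among father-reared fish and 3.29 times among orphaned fish. These 5 peaks were picked out after their values were seen.

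The 5 peaks differed in strength but went together. The strongest, 420676, had 6.40 to 25.9 CPM in males (mean 12.0 ± 4.95, SD, n = 15) and 0.534 to 9.52 CPM in females, with medians of 11.1 CPM in males and 3.8 CPM in females. At 415478 males had 1.42 to 6.58 CPM (median 3.03), against a median of 0.445 CPM and a highest value of 2.75 CPM in females. There 3 females had a count of 0, which allows up to 0.557 to 0.993 CPM in those libraries. No male had a count of 0 at any of the 5 peaks, while females had 2 to 5 such counts at each peak apart from 420676. Deviations of log2 CPM from the group means correlated between the 5 peaks at 0.26 to 0.79 (median 0.63 over 10 pairs, 31 fish sharing libraries and depth). Among tested neighbours along the whole chromosome end the median was 0.06 over 425 pairs. Tested peaks of the end had a median SD of log2 CPM within groups of 0.30. At 415478 this SD was 0.89 and at 420676 it was 0.80, so the median correlations compare unlike peaks.

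The strongest peak of the stretch, groupXIX 441709 to 442109, varied over a wide range in both sexes and was named after its values were seen. It had 9.94 to 30.7 CPM in males and 2.71 to 28.2 CPM in females. The lowest value, 2.71 CPM, belonged to father-reared replicate 2, a female whose library was the deepest of all at 10540612 counts. The same female stood far below every other fish at groupXIX 451026 to 451426, with 0.194 CPM, where males had 3.59 to 9.13 CPM (median 7.23) and females up to 9.94 CPM (median 6.13). Deviations at these 2 peaks correlated at 0.55 over 31 fish, and those of 443274, which lies between them, with 441709 at 0.51. The 31 fish include the female that was low at both peaks, and her weight in the 0.55 was not tested. The 2 tested peaks of the male-higher cluster, 415478 and 420676, correlated with 441709 at -0.14 and 0.01.

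**Figure D3:**
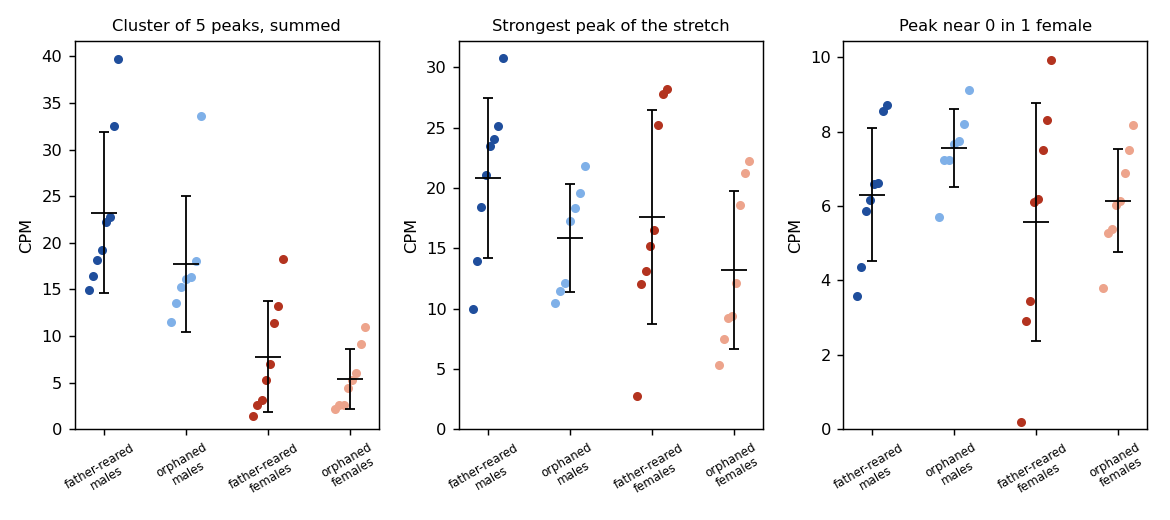
Levels in CPM for each fish in the low-count stretch, by group (points are fish, bars are mean and SD, n = 8, 7, 8 and 8): left, the summed cluster of 5 peaks; middle, the peak at 441709; right, the peak at 451026. The cluster sits higher in males with some overlap, the middle panel spans a wide range in every group, and 1 father-reared female lies at 0.194 CPM in the right panel.

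The typical peak of the chromosome end varied among fish about as much as peaks elsewhere. Strongly variable peaks made up a larger share than over all peaks tested, most of all in the low-count stretch. The SD of log2 CPM within care-by-sex groups had a median of 0.30 over the 426 tested peaks, against 0.29 over all peaks tested. It was above 0.5 in 17 of 426 peaks (3.99%), against a background of 1.88% of all peaks tested. Without the low-count stretch it was 10 of 417 (2.40%), against the same 1.88% of all peaks tested and 1.51% on the other linkage groups. The SD includes counting error, which is larger at weak peaks. edgeR's biological coefficient of variation, which leaves counting error out, had a median of 0.13 over the 426 tested peaks. Among variable peaks of that stretch it was 0.26 at 484530, 0.28 at 422449 and 451026, 0.31 at 420676 and 0.41 at 415478. On the rest of groupXIX the share of peaks with an SD above 0.5 was 5.90% from 2 to 4 Mb, 1.07% from 4 to 12 Mb and 1.06% beyond 12 Mb.

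Outside the stretch, variable peaks took more than one form. At groupXIX 746683 to 747083 males had 0.710 to 7.99 CPM (median 6.10), against 2.94 to 8.68 CPM (median 5.16) in females. Most fish were near the median, and the low values belonged to 2 males, father-reared replicate 1 at 0.710 CPM and orphaned replicate 1 at 0.757 CPM. At groupXIX 1478431 to 1478831 males had 2.60 to 14.4 CPM (median 7.35) and females 2.4 to 12.1 CPM (median 4.74), so both sexes spread widely. Among the 5 peaks with the largest SD, 415478, 420676, 422449 and 451026 belonged to the low-count stretch and only 746683 did not. Over the 426 tested peaks brothers and sisters were little more alike than other fish. Their residuals correlated at 0.05 on average (SD 0.18, 9 of 15 pairs above 0). For brothers and sisters of different families under the same care the average was -0.01. Over the 17 peaks with an SD above 0.5 the averages were 0.13 (SD 0.32, 11 of 15 pairs above 0) and -0.02.

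The study's main question was whether a father's care shows in the brain chromatin of his offspring, and the choice of these peaks did not use that contrast. No peak of the chromosome end passed the test: edgeR's quasi-likelihood test, fitted on all 100808 peaks with sex in the model, called 0 of 426 (lowest adjusted p = 0.69), where the background was 0% of all peaks. DESeq2 called 0 as well (lowest adjusted p = 0.66). At a raw p under 0.05 edgeR had 55 of 426 peaks (12.9%), against a background of 7.24%, and DESeq2 had 51. Of the 55, 35 were higher in father-reared fish (background 3.59%) and 20 were lower (background 3.66%). At 96.2% of the peaks the 95% interval of the difference reached no further than 1.5-fold, and at 100% no further than 2-fold. Without father-reared replicates 15 and 16, a brother and a sister with high counts in strong peaks, the raw count fell to 28 of 425 (6.59%), against 4.33% of all peaks in the same fit.

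The 5 peaks with the lowest raw p showed modest shifts with overlapping groups. At groupXIX 1774601 to 1775001 father-reared fish had 3.56 to 6.23 CPM (median 4.86), against 4.21 to 8.66 CPM (median 6.21) in orphaned fish. The log2 difference was -0.40 (SE 0.11, edgeR adjusted p = 0.69). The male-higher peak 420676 had 7.50 to 25.9 CPM (median 11.6) in father-reared males and 6.40 to 15.5 CPM (median 9.25) in orphaned males. Among females it had 0.927 to 9.52 CPM (median 4.54) when father-reared and 0.534 to 5.05 CPM (median 3.48) when orphaned. There the log2 difference was 0.59 (SE 0.18, edgeR adjusted p = 0.69). At both peaks the ranges of father-reared and orphaned fish overlapped, at 420676 within each sex. The peaks 1294424, 887881 and 1299412 had positive log2 differences of 0.31, 0.28 and 0.28, and did not pass the test either.

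The same held within each sex. Among males edgeR called 0 of 426 peaks (background 0%, lowest adjusted p = 0.92), with 34 at a raw p under 0.05 (7.98%, background 5.31%) and 33 by DESeq2. Without father-reared replicates 15 and 16 there were 22 of 425 (5.18%, against 4.00% of all peaks in that fit). The lowest raw p belonged to groupXIX 302470 to 302870, with 8.97 ± 1.96 CPM in father-reared males (SD, n = 8) and 6.18 ± 1.36 CPM in orphaned males (n = 7), a log2 difference of 0.56 (SE 0.15). At 948902 and 1432779, next in order, the log2 differences were 0.57 and -0.45. Among females 0 of 426 passed (background 0%, lowest edgeR adjusted p = 0.92), with 23 at a raw p under 0.05 (5.40%, background 4.63%) and 22 by DESeq2. Without those libraries there were 11 (2.59%, against 3.57%). The lowest was groupXIX 55869 to 56269, with 21.5 ± 6.24 CPM in father-reared females and 16.0 ± 3.09 CPM in orphaned females (SD, n = 8 each), a log2 difference of 0.43 (SE 0.16). At 774694 and 1683636 it was -0.37 and -0.46. The intervals reached no further than 1.5-fold at 81.7% of peaks in males and at 88.5% in females.

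No peak passed the test of whether the care difference itself differed between the sexes. For the care difference in males minus that in females edgeR called 0 of 426 (background 0%, lowest adjusted p = 1.00), with 8 at a raw p under 0.05 (1.88%, background 3.49%) and 7 by DESeq2. The lowest raw p belonged to groupXIX 1440040 to 1440440, with 5.54 ± 1.26 CPM in father-reared males against 3.99 ± 0.32 CPM in orphaned males, and 4.97 ± 1.32 CPM in father-reared females against 5.81 ± 1.17 CPM in orphaned females (SD, n = 8, 7, 8 and 8). All 4 groups overlapped there, and the difference of the log2 differences was 0.71 (SE 0.24, edgeR adjusted p = 1.00). Next came 1106164 and 484530, the last in the low-count stretch. This contrast is the least precise: the interval reached no further than 1.5-fold at 51.4% of peaks and no further than 2-fold at 96.5%.

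Left and right brain sides were compared with care and sex in the model. edgeR called 0 of 426 peaks for left minus right (background 0%, lowest adjusted p = 0.99), with 15 at a raw p under 0.05 (3.52%, background 4.06%) and 15 by DESeq2. Without father-reared replicates 15 and 16 there were 6 of 425 (1.41%, against 2.70% of all peaks). The lowest raw p was at groupXIX 845068 to 845468, with 7.17 ± 1.12 CPM in left sides (SD, n = 13) and 5.42 ± 0.93 CPM in right sides (n = 18), a log2 difference of 0.34 (SE 0.11). At 756848 and 118283 it was 0.35 and 0.29. The interval reached no further than 1.5-fold at 98.1% of the peaks.

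The care differences followed the strength of the peaks. Among the 56 tested peaks in the strongest 10% of the whole table, at 17.6 to 82.3 CPM, 55 were higher in father-reared fish, with a median log2 difference of 0.16. All 15 of them with a raw p under 0.05 (26.8% of the 56) were higher. Among the 61 in the weakest 10%, at 1.56 to 5.26 CPM, 22 were higher, with a median of -0.08. Over all peaks of the table the strongest 10% had a median of 0.13, with 95.1% higher and 12.8% at a raw p under 0.05, and the weakest 10% had -0.05. Without father-reared replicates 15 and 16 the median of the 56 strong peaks was 0.11, with 54 higher and 2 at a raw p under 0.05 (3.57%), against a median of 0.08, 89.1% higher and 2.33% at such a p over all strong peaks. The direction of the gradient was thus shared with peaks elsewhere. With all 31 libraries the share of strong peaks at a raw p under 0.05 was larger in the chromosome end (26.8% against 12.8%). The causes were not tested.

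**Figure D4:**
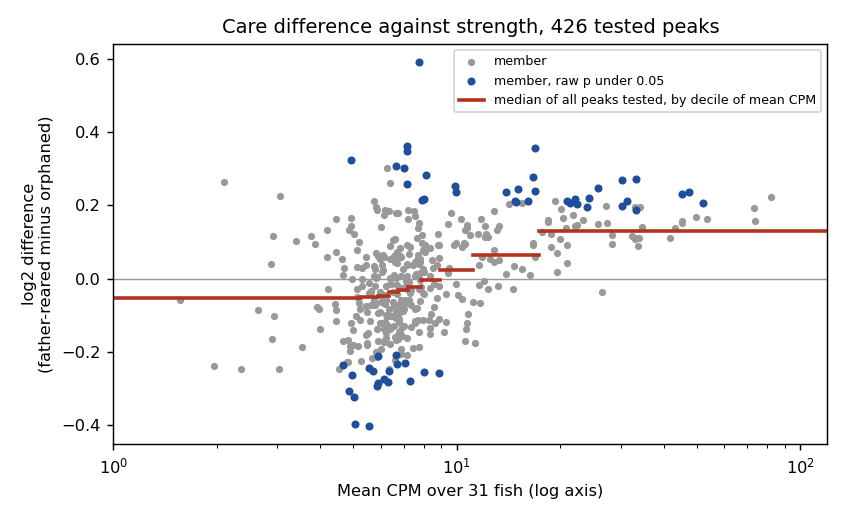
Log2 difference of father-reared minus orphaned fish against mean level over 31 fish (CPM, log axis) for the 426 tested peaks of the chromosome end; blue points have a raw p under 0.05, and red lines are the medians of all 100808 peaks by decile of mean level. The strong peaks to the right lie above 0 and the red line is at 0.13 there, while the weak peaks centre below 0.

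The strongest peak, groupXIX 6591 to 6991, was higher on average in father-reared fish. Father-reared fish had 44.1 to 135 CPM (median 84.6), against 50.6 to 92.3 CPM (median 79.1) in orphaned fish. The log2 difference was 0.22 (SE 0.12, edgeR adjusted p = 0.69), and the range of father-reared fish enclosed that of orphaned fish. All 10 strongest peaks were higher on average in father-reared fish, with log2 differences of 0.15 to 0.24, and none passed the test. The share of the counts of the chromosome end held by these 10 peaks was 8.87% to 16.1% (median 13.6%) in father-reared fish and 9.13% to 14.0% (median 12.5%) in orphaned fish. In means over families the shares differed by 0.10 on the log2 scale (exact permutation over 16 families, two-sided p = 0.193, adjusted p = 0.516 over 8 tests). In males alone the log2 difference was 0.12 (exact permutation p = 0.280), in females 0.10 (exact permutation p = 0.377), and the difference between them 0.0015 (exact permutation p = 0.994).

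The share of counts in the chromosome end, as a percentage of its counts plus those off groupXIX, did not pass the test of care either. It ran from 0.442% over a median of 0.472% to 0.507% in father-reared fish and from 0.443% over 0.458% to 0.486% in orphaned fish. Relative to counts off groupXIX the father-reared to orphaned ratio was 1.02, a log2 difference of 0.028 (exact permutation over 16 families, two-sided p = 0.152, adjusted p = 0.516 over 8 tests). In males the ratio was 1.03 (exact permutation p = 0.0970) and in females 1.01 (exact permutation p = 0.441), and the difference between the sexes did not pass either (log2 0.025, exact permutation p = 0.487). Leaving out 1 family at a time moved the unadjusted exact permutation p in males both ways. It was 0.0204 without father-reared family 27, 0.0436 without orphaned family 39 and up to 0.177 without orphaned family 22. With the median of log2 CPM over peaks in place of summed counts, the care difference turned to -0.0303 (exact permutation p = 0.315). Within the 3 stretches of library numbers, a stand-in for library batches, the log2 difference of the share was 0.023, 0.038 and 0.034, and that of the share of the 10 strongest peaks -0.0029, 0.18 and 0.13.

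**Figure D5:**
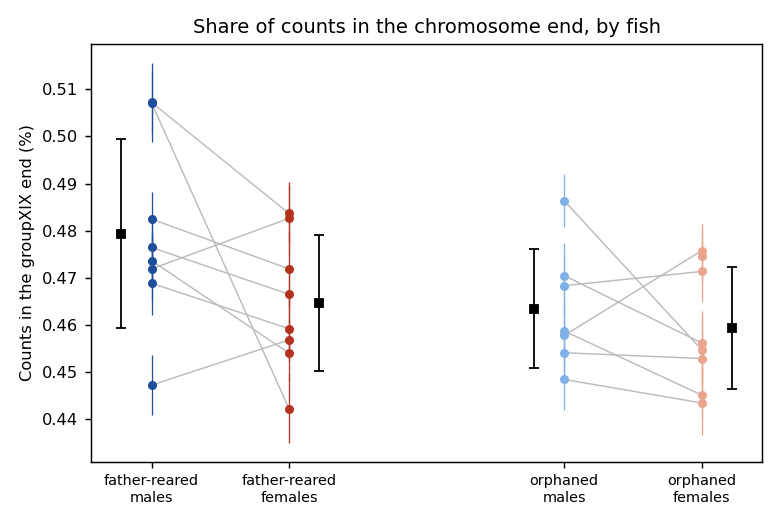
Counts in the chromosome end of groupXIX as a percentage of those counts plus counts off groupXIX, for each fish with its 95% Wilson interval; grey lines join a brother and a sister, and black squares and bars are group means and SDs (n = 8, 8, 7 and 8 from left to right). The axis does not start at 0: all fish lie between 0.442% and 0.507%, and the groups overlap.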

How the data were processed

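ATAC-seq libraries were made from cryopreserved homogenate of the left or right brain of 31 fish and amplified by PCR, per the labels' protocols. Per the submitters' processing notes, the tools were DiffBind 3.14.0, MACS2 2.2.5, Bowtie2 2.3.5.1, Picard 2.10.1, SAMtools 1.9 and FastQC 0.11.8, with no roles given. No source used here gives the genome build, how duplicates were treated or whether reads were shifted for Tn5. A single table was deposited by the authors, with raw counts (unscaled whole numbers) for a peak set common to all libraries. Peaks called on the same libraries seldom lack counts in all of them. The labels name no molecular identifiers, so reads amplified by PCR may repeat a molecule, and the Wilson intervals cover counting error only.

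The filterByExpr rule of edgeR, with 4 groups of care and sex and a minimum count of 10, left 100808 of 102149 peaks, and 426 of the 437 described. Counts were scaled by TMM and tested over the whole table with edgeR 4.0.16 in R 4.3.3 (quasi-likelihood F test, Benjamini-Hochberg adjusted p under 0.05). Care was tested with sex in the model, care within a sex and the interaction from 4 group means, and side with care and sex. CPM use the scaled library sizes, and log2 CPM a prior count of 2. A positive log2 difference means higher in father-reared fish, in males or in left sides. Care was compared for shares of counts by exact permutation over families. The fits and the permutation were tested on simulated data.

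Care, sex and side come from the labels; family is an inference from the fish identifier. The labels give batches of libraries without their members, so 3 stretches of 11 library numbers stood in for them. Siblings share a family number; their consensus correlation within peaks was 0.042. Peaks were named by a rule: the lowest raw p per contrast (5 for care, 3 for the others), the 10 strongest, the 5 highest and 5 lowest by sex, the 5 most variable, the 3 on each side of the limit and the first. The peaks and lists described were chosen with earlier results of these data known. Alternatives included DESeq2 1.42.0, limma 3.58.1 with family as a random block, other scalings, filters and region limits, and each family left out. A gene table from another assembly was not used.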

Additional observations from a re-analysis of the deposited data

Results flagged for a closer look

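Single fish stood far from the rest of their care-by-sex group in 7 of 180 groups examined (45 measures in 4 groups each). The rule compared the gap to the nearest fish with the range of the group. Chance alone flags about 1 group in 20, and 7 of 180 is not above that rate. The measures overlap, as 415478 is also part of the summed cluster. At groupXIX 4345 father-reared replicate 4, a female, had 4.08 CPM, against 0.999 to 2.08 CPM in the other father-reared females. At groupXIX 484530, in the low-count stretch, father-reared replicate 10, a female, had 0.692 CPM, against 4.37 to 7.51 CPM. At groupXIX 746683 father-reared replicate 1, a male, had 0.710 CPM, against 5.63 to 7.12 CPM in the other father-reared males. At groupXIX 756848 father-reared replicate 5, a male, had 8.47 CPM, against 3.91 to 5.44 CPM. At groupXIX 1822323 orphaned replicate 9, a female, had 9.63 CPM, against 4.21 to 6.49 CPM in the other orphaned females. Orphaned replicate 5, a male, was high in the male-higher cluster: 33.6 CPM summed over the 5 peaks, against 11.5 to 18.1 CPM in the other orphaned males, and 6.58 CPM at groupXIX 415478, against 1.98 to 3.74 CPM. The causes were not tested.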

How the results depend on the processing

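The tests of care, care within each sex, the interaction and side called 0 peaks of the chromosome end under every alternative run, and the lowest adjusted p was 0.58 (care, with brain side as a covariate). The 17 results for named peaks kept their direction in all 154 alternatives. With family as a random replicate block 0 peaks passed for care, and 52 (12.2%) had a raw p under 0.05, against 6.58% of all peaks. With a fixed replicate block 0 passed for the interaction, and 11 (2.59%) had such a p, against 3.58%. Without father-reared replicates 15 and 16, an alternative chosen after seeing the data, the raw count for care fell to 28 of 425.

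The share of counts depends on its summary: with the median of log2 CPM over peaks in place of summed counts, the care difference was -0.0303, in males -0.0170 and in females -0.0455 (exact permutation p = 0.315, 0.687 and 0.183). The cause was not tested. With 20 in place of 10 strongest peaks, the interaction of their share was -0.00568 (exact permutation p = 0.970). Leaving out 1 family at a time gave 0.0185 to 0.0369 for the share, 0.0365 to 0.0625 in males, 0.00828 to 0.0268 in females and 0.00275 to 0.0376 for the interaction. In males, exact permutation p before adjustment was 0.0204 without family 27, 0.0436 without family 39 and up to 0.177 without family 22. For both sexes together it ran from 0.0587 without family 27 to 0.286 without family 20. For the 10 strongest peaks the ranges were 0.0592 to 0.134, 0.0507 to 0.154 in males, 0.0568 to 0.173 in females and -0.0843 to 0.0611 for the interaction. The other alternatives kept direction and side of the threshold. Depth limits single peaks, which had a median of 19 to 69 counts per library. In the low-count stretch 11 of the 20 peaks, at 0.577 to 1.76 CPM, had too few counts to be tested. No peak elsewhere in the end did, in the same libraries. Why these 11 were weak was not tested.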
